A study of Mus musculus with 23 samples.

Results

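The obesogenic diet was compared with lean chow in 15 of the 23 arrays of a study of the mouse circumvallate papilla, a trench-ringed taste organ far back on the tongue. The 15 were chosen by their titles alone, 8 named DIO and 7 named Lean, and no measured value entered the choice. All came from male C57Bl6/j mice. Food was taken freely in both groups. Lean mice received a standard chow of which 3% by weight was fat, and DIO mice an obesogenic diet high in fat, much of it saturated. The remaining samples, named DIO-R, were left out of the main comparison. Neither genotype nor any drug differs between the groups, and the labels used here do not give the length of the diet, the age at sampling, the hour of sampling or the body weight reached. The lingual epithelium was loosened from the connective tissue with elastase and dispase before the papilla was cut out, so other cells of the tongue can come along. Nothing states that each sample is a separate animal, so p-values here describe only how far these samples spread, which may be technical in part. In bulk tissue of this kind, fewer cells of a type and less RNA per cell cannot be told apart.

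Taste buds of this papilla hold supporting type I cells, type II cells that sense sweet, umami and bitter compounds, and type III cells that sense sour, all renewed from basal cells of a stratified epithelium. The epithelium also houses resident macrophages and dendritic cells, including Langerhans cells, which carry peptides on MHC class II. Epithelial cells make cholesterol and other lipids for their barrier, and like most tissues they run a circadian clock in which the Bmal1 arm drives repressors and outputs such as Dbp.

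Each array gave 1 colour of signal from 25 ng of labelled total RNA. Values below are log2 signals relative to the 75th percentile of the same array, so 0 is that percentile and a difference of 1 is a 2-fold difference. Of 35019 gene symbols 27582 were kept, each with a brightest probe well above background in 7 or more of the 15 arrays. Between 67.8% and 74.4% of probes were well above background on these arrays and 0 spots were saturated. The arrays sat on 3 slides that each held both groups, and the test between slides called 0 genes at the same threshold as below, an adjusted p under 0.05. Correlations between pairs of arrays lay between 0.960 and 0.992. Some DIO samples stood apart: of the DIO samples, DIO 1 was lowest in the type I, type II, type III and bitter receptor lists, DIO 3 was highest in interferon-induced and lowest in fibroblast genes, DIO 2 was lowest in keratinocyte genes, and DIO 10 was highest in MHC genes.

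A single gene passed, Aif1, and it was higher in DIO. With limma and Benjamini-Hochberg adjustment over all genes kept, 1 of 27582 genes was called at an adjusted p under 0.05, which is 0.00363%. At an unadjusted p under 0.05 there were 2166 genes, 7.85% of those tested against 1379.1 expected at that threshold, with 1002 higher in DIO (3.63%) and 1164 lower (4.22%). Higher genes made up 46.3% of them; after quantile normalization the share was 58.0%, and the authors' deposited values gave 57.2%, so the balance of directions rests on the scaling. The median difference over all genes was -0.04, with 11319 genes above 0 (41%) and 16263 below (59%). These shares, with 3.63% higher and 4.22% lower at an unadjusted p under 0.05, are the background for the list counts below. The groups did not overlap in 34 genes, 0.123% of those tested, 21 of them higher in DIO (0.0761%) and 13 lower (0.0471%).

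**Figure D1:**
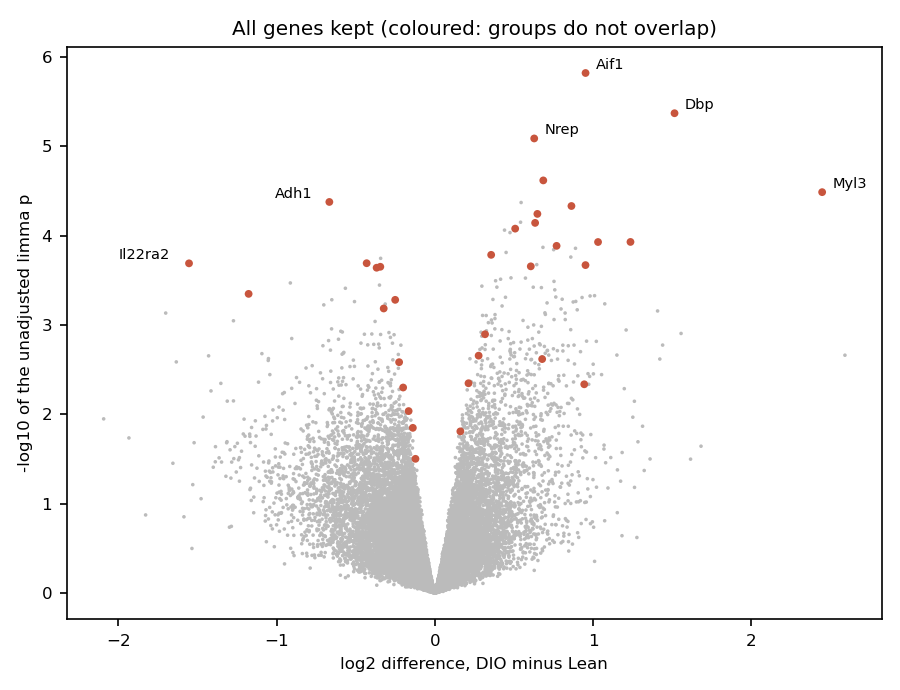
Log2 difference of DIO minus Lean on the x axis against -log10 of the unadjusted limma p on the y axis, 1 point for each of the 27582 genes kept; coloured points are the 34 genes whose groups do not overlap. Aif1 is the topmost point, with Dbp and Nrep next to it in rank, and Myl3 lies far to the right at 2.45.

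Aif1 encodes a calcium-binding, actin-bundling protein of macrophages and their relatives. Its probe lies on chromosome 17 (chr17:35307959-35308018, mm9, minus strand). In the 7 Lean samples it was at -0.04, 0.35 and 0.67 (lowest, median and highest), and in the 8 DIO samples at 1.12, 1.24 and 1.79. The lowest DIO sample lay above the highest Lean sample, and DIO 10 was the sample at 1.79. Aif1 rose by 0.95 ± 0.12 (SE; Lean mean 0.35, DIO mean 1.30), a 1.93-fold rise (limma adjusted p = 0.0416). An exact two-sided permutation test over samples gave p = 0.000155, the smallest it can give, which follows from the lack of overlap and adds nothing to it for a gene picked as the top of all those tested. Within slides 1, 2 and 3 the difference was 0.98, 1.01 and 0.81. The call was lost without filtering (adjusted p = 0.0698). It was also lost when the mean of the erythrocyte genes entered the fit as a covariate (1.07, adjusted p = 0.417), or the means of keratinocyte and of fibroblast genes (0.88, adjusted p = 0.0648). All 10 erythrocyte genes were higher in DIO, so that covariate overlaps in part with the groups and its fit cannot separate them. The Aif1 difference was not smaller in that fit, at 1.07 beside 0.95. The call held in 4 of the 15 fits that left 1 sample out, those without Lean 5, Lean 7, DIO 6 or DIO 10, and was lost in the other 11, with differences from 0.88 to 1.01 over all 15.

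**Figure D2:**
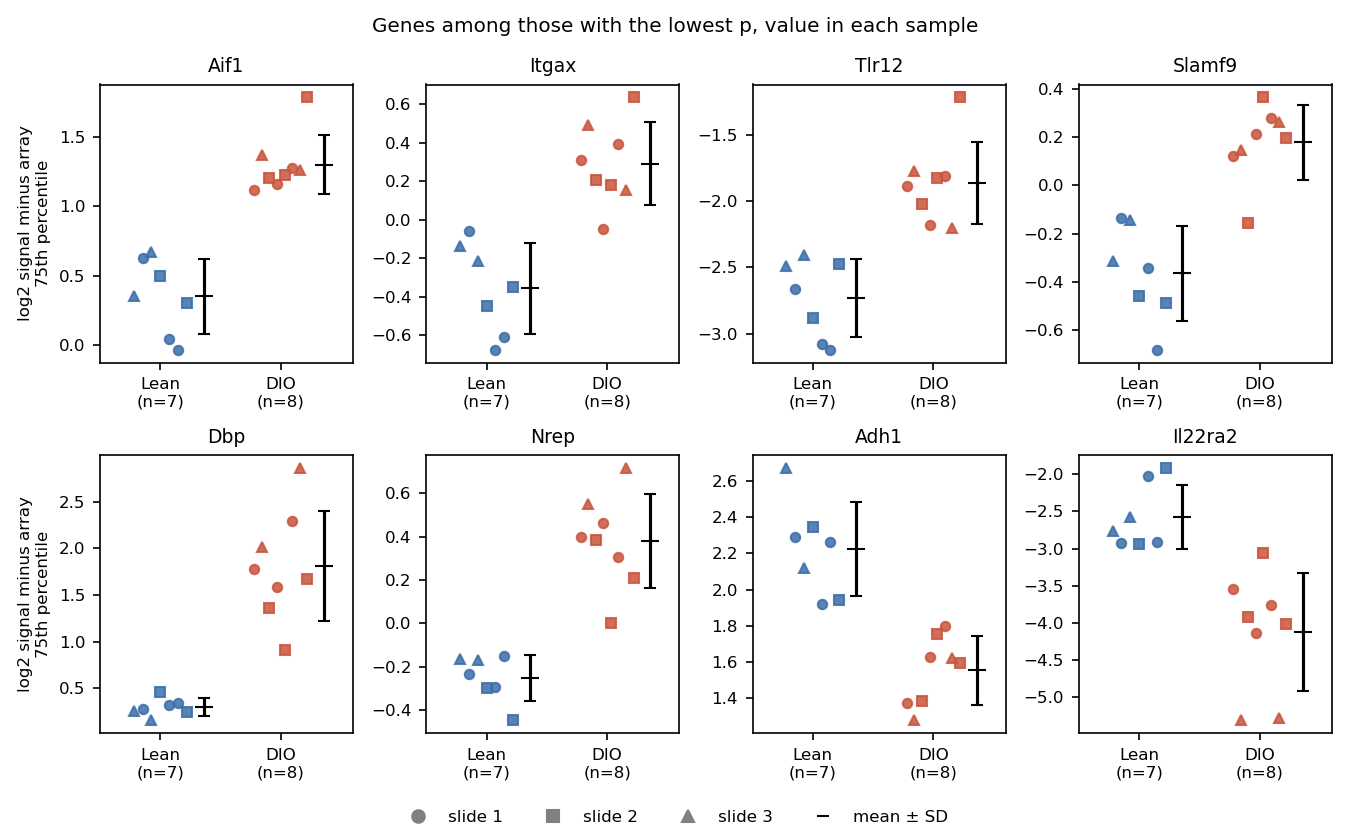
Value of each sample (log2 signal minus the 75th percentile of its array, y axis) for 8 genes in Lean (n = 7) and DIO (n = 8); marker shapes give the slide, and bars give the mean with its SD. In every panel but that of Slamf9 all DIO samples lie on one side of all Lean samples, and in the panel of Aif1 the Lean samples end at 0.67 and the DIO samples start at 1.12.

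The macrophage list, which includes Aif1, was mixed. Of its 26 members kept, 22 were higher in DIO, beside 41% of all genes. The median difference was 0.24, beside -0.04 over all genes. At an unadjusted p under 0.05 there were 8 higher and 0 lower, against 3.63% and 4.22% of all genes. Slamf9, a receptor of myeloid cells, lay at -0.68, -0.34 and -0.13 in Lean and at -0.16, 0.21 and 0.37 in DIO, and DIO 3 alone reached into the Lean range. It was higher by 0.54 ± 0.10 (SE) without passing (limma adjusted p = 0.16). Fcgr1, a receptor for antibodies, was higher by 0.75 ± 0.20, Cx3cr1, the fractalkine receptor, by 0.54 ± 0.18, and Adgre1, which encodes F4/80, by 0.48 ± 0.20. The general macrophage genes Csf1r, Cd68 and Lyz2 differed by 0.09 ± 0.18, 0.10 ± 0.09 and -0.01 ± 0.17, and Lyz2 lay at 0.041 with quantile normalization and at 0.013 by the authors' deposited table. Leaving out single samples gave 4 to 11 members at that threshold, with 4 and a median of 0.13 without Lean 9. With keratinocyte and fibroblast covariates the median was 0.04 and with the erythrocyte covariate 0.37. The summed signal of the list, relative to the array's 75th percentile, ran from 85.8 to 133.7 in Lean and from 89.5 to 140.2 in DIO.

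Dendritic and Langerhans cell genes lay higher as a group, with 10 of 13 above 0, against 41% of all genes, and a median of 0.47. At an unadjusted p under 0.05 there were 8 higher and 0 lower, against 3.63% and 4.22% of all genes. With keratinocyte and fibroblast covariates the median was 0.29, with 6 at that threshold. Itgax, which encodes the integrin CD11c, lay at -0.68, -0.35 and -0.06 in Lean and at -0.05, 0.26 and 0.64 in DIO. The groups met closely without overlapping, and the difference of 0.65 ± 0.12 did not pass (limma adjusted p = 0.175). Clec9a, a receptor for dead cells on cross-presenting dendritic cells, differed by 0.63 ± 0.16, Ccr7, which guides dendritic cells to lymph nodes, by 0.73 ± 0.22, Cd209a by 0.80 ± 0.26 and Cd207, the langerin of Langerhans cells, by 0.56 ± 0.24. Tlr12, a Toll-like receptor, lay at -3.12, -2.66 and -2.40 in Lean and at -2.20, -1.86 and -1.22 in DIO. Its groups did not overlap, and the difference was 0.86 ± 0.15 (limma adjusted p = 0.16), or 0.47 with normexp background correction. Of 12 Toll-like receptor genes kept, 10 were higher, with a median of 0.18, and 4 had an unadjusted p under 0.05, all higher, among them Tlr3, Tlr5 and Tlr6 at 0.32 ± 0.12, 0.43 ± 0.16 and 0.43 ± 0.17. The Toll-like receptor median was 0.08 without Lean 9 and with keratinocyte and fibroblast covariates, and 0.30 with the erythrocyte covariate.

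MHC class II genes, which present peptides to helper T cells, lay higher in DIO. All 12 members kept were above 0, from 0.03 to 0.86 with a median of 0.58, and 9 had an unadjusted p under 0.05. Over all genes 41% lay above 0 and 3.63% were higher at that threshold. H2-Ab1, the beta chain of I-A, lay at 4.47, 5.24 and 5.45 in Lean and at 5.31, 5.72 and 6.42 in DIO. The DIO samples started just below the top of the Lean range, and the difference was 0.64 ± 0.17 (limma adjusted p = 0.366). H2-Eb1 and H2-Aa, which encode further chains, differed by 0.66 ± 0.19 and 0.72 ± 0.23, and Cd74, the invariant chain that guards the peptide groove, by 0.56 ± 0.18. H2-Oa and H2-DMb1, which edit the peptide load, differed by 0.86 ± 0.27 and 0.61 ± 0.18, while H2-Ob differed by 0.05 ± 0.20. Ciita, the coactivator that switches the family on, differed by 0.13 ± 0.22. Within slides 1, 2 and 3 the median was 0.45, 0.72 and 0.48, and it ran from 0.48 to 0.65 with single samples left out. With keratinocyte and fibroblast covariates it was 0.36, with 11 of 12 members higher and 5 at an unadjusted p under 0.05.

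The promoters of class II genes carry a Y box, read here as CTGATTGG on either strand in the window from 250 bases before to 50 after the start site (RefSeq, GRCm38.p6). It was found in 4 of 9 members with a promoter on file, 44.4%, against 4.70% of all 27025 genes with one. These 3 are shown for members described above, with the Y box in capitals: chr17:34305780-34305837 on the plus strand for H2-Eb1, chr17:34287842-34287899 on the minus strand for H2-Aa and chr17:34092308-34092365 on the plus strand for H2-Oa. A match describes the letters only.
H2-Eb1: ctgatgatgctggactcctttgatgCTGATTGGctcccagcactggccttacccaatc
H2-Aa: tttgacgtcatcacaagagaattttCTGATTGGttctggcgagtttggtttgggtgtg
H2-Oa: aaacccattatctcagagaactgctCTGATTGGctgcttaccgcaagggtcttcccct

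MHC class I genes followed with 10 of 11 higher (41% of all genes) and a median of 0.30. Of them 5 had an unadjusted p under 0.05, all higher (3.63% of all genes). Psmb9 and Psmb8, catalytic subunits of the immunoproteasome, differed by 0.78 ± 0.23 and 0.62 ± 0.20, though the other probe of Psmb9 differed by -0.06. B2m, the light chain, differed by 0.51 ± 0.20, and Nlrc5, the class I coactivator, by 1.07 ± 0.42. Without DIO 10 the median was 0.16, and with the erythrocyte covariate it was 0.48.

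Interferon-induced genes had 28 of 50 members at an unadjusted p under 0.05, all higher. This share of 56% stood beside 3.63% of all genes, and lists such as cholesterol synthesis (80%) and MHC class II (75%) had larger shares. Of the 50 interferon-induced genes, 47 lay above 0, beside 41% of all genes, and their median was 0.66. Ifi203, a DNA-sensing family member, lay at -0.41, -0.26 and 0.81 in Lean and at 0.55, 0.82 and 1.34 in DIO. A single Lean sample, at 0.81, reached into the DIO range, and the difference was 0.89 ± 0.18 (limma adjusted p = 0.198). The guanylate-binding proteins Gbp2, Gbp3 and Gbp7 act against intracellular microbes and differed by 0.94 ± 0.28, 1.21 ± 0.30 and 0.82 ± 0.20. Uba7, which activates the ubiquitin-like protein Isg15, lay at -0.01, 0.30 and 0.65 in Lean and at 0.75, 1.09 and 1.33 in DIO, without overlap, a difference of 0.69 ± 0.11 (limma adjusted p = 0.16). Bst2, Trim30a, Ifi27l2a and Ifi44 differed by 0.75 ± 0.24, 0.88 ± 0.25, 1.00 ± 0.28 and 1.25 ± 0.43. The list's mean per sample ran from -0.84 to 0.05 in Lean and from -0.34 to 1.52 in DIO, where DIO 3, DIO 10 and DIO 8 were the highest and the other 5 lay at or below 0.01. Without DIO 3 the median was 0.47 with 21 members at that threshold, without DIO 10 it was 0.58 with 19, and with the erythrocyte covariate it was 0.57 with 8. The lowest count with 1 sample left out was 18, without Lean 9.

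An interferon-stimulated response element, searched on either strand in the same window, was found in 20 of 34 members with a promoter on file, 58.8%, against 3.99% of all genes. These 3 are shown for members described above, with the match in capitals, which in Gbp3 and Gbp2 reads on the opposite strand: chr3:142559974-142560033 for Gbp3 and chr3:142620579-142620638 for Gbp2, both on the plus strand, and chr1:173942493-173942552 on the minus strand for Ifi203.
Gbp3: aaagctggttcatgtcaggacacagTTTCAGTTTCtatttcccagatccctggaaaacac
Gbp2: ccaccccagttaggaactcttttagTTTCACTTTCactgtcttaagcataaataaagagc
Ifi203: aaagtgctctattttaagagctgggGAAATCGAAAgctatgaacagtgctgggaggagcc

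Chemokine ligands went both ways. Of 30 kept, 18 were higher and 12 lower, beside 41% and 59% of all genes, with a median of 0.07. At an unadjusted p under 0.05 there were 6 higher and 4 lower, beside 3.63% and 4.22% of all genes. With the erythrocyte covariate there were 6 and 0. Ccl12, Ccl7 and Ccl2, which draw monocytes, differed by 1.00 ± 0.29, 0.97 ± 0.29 and 0.77 ± 0.31, and Cxcl12, which retains leukocytes, by 0.70 ± 0.22. Cxcl13, which draws B cells, differed by -1.46 ± 0.50, the epithelial chemokine Ccl28 by -1.28 ± 0.55 and the neutrophil chemokine Cxcl5 by -0.66 ± 0.20. Gm1987 and Gm13304, the latter a copy of Ccl21 by its RefSeq synonyms, differed by 1.24 ± 0.24 and 1.03 ± 0.20 without overlap, but probes may not separate the copies of this family, which makes both values uncertain.

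On the epithelial side of immunity, the soluble interleukin 22 binder Il22ra2 was lower. It lay at -2.93, -2.76 and -1.91 in Lean and at -5.32, -3.97 and -3.06 in DIO, so that the groups did not overlap. The difference was -1.55 ± 0.32 (limma adjusted p = 0.203), and within slides 1, 2 and 3 it was -1.20, -1.24 and -2.64. It was -0.68 with normexp background correction, -0.89 by the authors' deposited table and -0.77 with the erythrocyte covariate. Its list, the interleukin 22 and 17 axis, had 12 of 13 members lower, beside 59% of all genes, with a median of -0.10. But 1 had an unadjusted p under 0.05, beside 4.22% of all genes lower at that threshold. With either covariate set 8 of 13 were lower. Antimicrobial and alarmin genes had a median of -0.43 with 9 of 12 lower, beside the same 59%. Beside 4.22% and 3.63% of all genes, 2 of them were lower and 1 higher at an unadjusted p under 0.05. With the erythrocyte covariate their median turned to 0.06 with 6 higher and 6 lower, and with the keratinocyte and fibroblast covariates it was -0.19. It was -0.24 without Lean 10. Saa2, an acute phase protein of the list, differed by 1.56 ± 0.39, or by 0.66 with normexp. The defensins Defb4 and Defb1 differed by -0.81 ± 0.33 and -0.78 ± 0.33, and both by -0.21 with the keratinocyte and fibroblast covariates.

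Markers of other cells moved in the same comparison, and their part in the results above was not tested beyond the covariate fits given. Because the covariates themselves leaned with the groups, a fit with them cannot separate these cells from the diet. All 10 erythrocyte genes were higher, with a median of 0.95 and 6 at an unadjusted p under 0.05, beside 41% and 3.63% of all genes. Their summed signal ran from 73.6 to 277.5 in Lean and from 173.5 to 594.1 in DIO. Hbb-bt, a haemoglobin chain whose near-identical copies can share signal, differed by 1.41 ± 0.33, and Alas2, which starts haem synthesis in red cells, by 0.84 ± 0.23. Fibroblast and matrix genes were higher in 24 of 26, with a median of 0.32 and 5 at an unadjusted p under 0.05, beside the same 41% and 3.63%. Their summed signal ran from 377.6 to 812 in Lean and from 414.5 to 926.7 in DIO. Lum, a matrix proteoglycan, differed by 0.96 ± 0.25, while Dcn differed by 0.02 ± 0.17. Serpinh1, a collagen chaperone outside the list, differed by 0.61 ± 0.13 without overlap. Without DIO 3 the fibroblast median was 0.47 with 14 members at that threshold, while with the erythrocyte covariate it was 0.28 with 0. The fewest with 1 sample left out was 3. Mast cell genes were split 5 to 4, and Cpa3 and Mcpt4, proteases of these cells, differed by 1.62 ± 0.68 and 1.31 ± 0.47. Without Lean 10 they differed by 0.96 and 0.88, and with the erythrocyte covariate by 0.12 and 0.33. Lean 10 lay at -8.11 in Cpa3, far below the median of the other Lean samples (-3.25). Muscle genes had a median of -0.02, or -0.28 with the erythrocyte covariate. Myl3, a myosin light chain outside that list, lay at -1.61, -0.06 and 1.41 in Lean and at 1.50, 2.55 and 3.21 in DIO. Its groups did not overlap, and the difference was 2.45 ± 0.42 (limma adjusted p = 0.16), or 1.40 with the erythrocyte covariate.

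**Figure D3:**
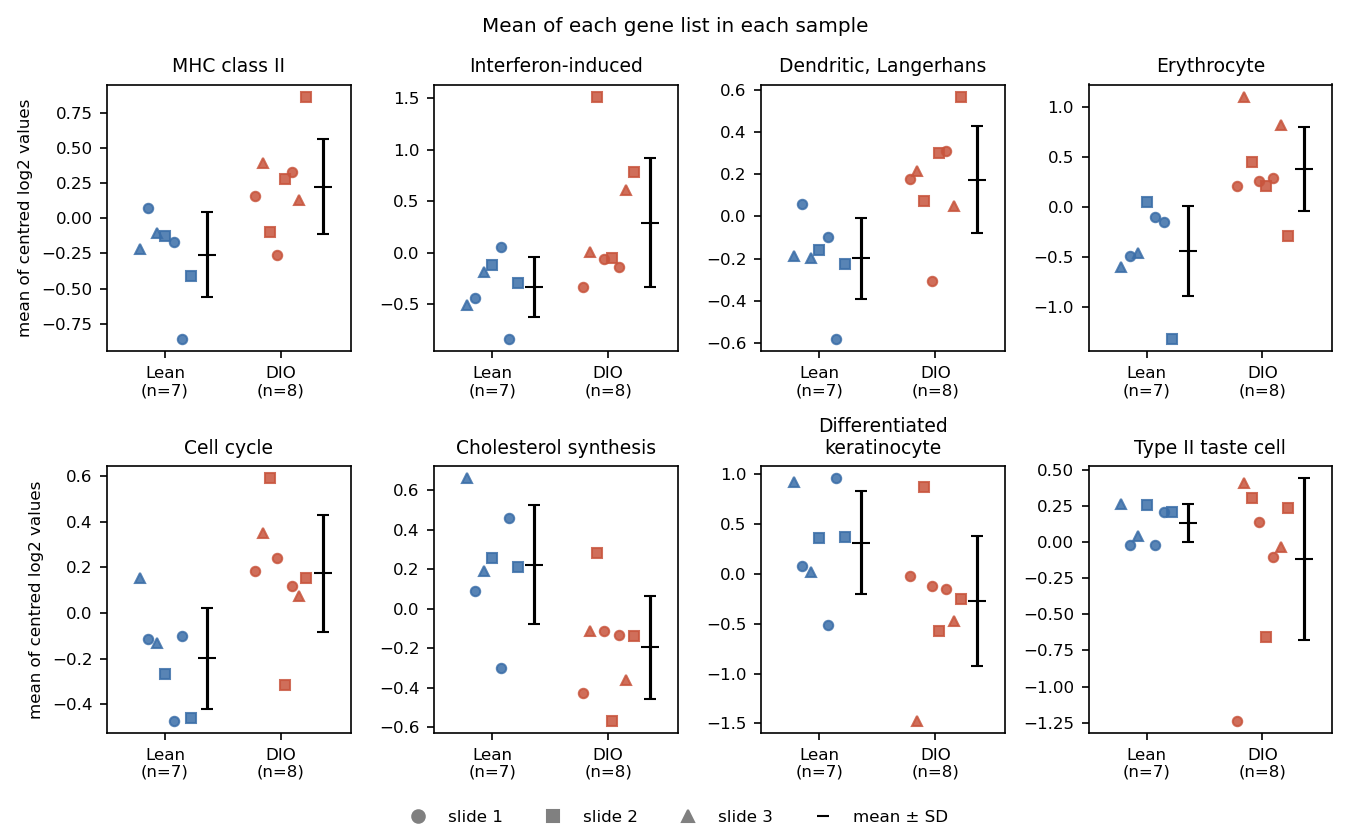
Mean over the genes of a list, each gene centred on its mean over the 15 samples (y axis, log2), in every Lean (n = 7) and DIO (n = 8) sample for 8 lists; marker shapes give the slide, and bars give the mean with its SD. DIO 3 is the top interferon-induced point at 1.52, DIO 2 the bottom keratinocyte point at -1.48 and DIO 1 the bottom type II taste cell point at -1.24.

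Genes of cholesterol synthesis were lower throughout. All 20 members kept lay below 0, from -0.65 to -0.10 with a median of -0.45, and 16 had an unadjusted p under 0.05. Over all genes 59% lay below 0 and 4.22% were lower at that threshold. Hmgcs1, which makes the pathway's first committed precursor, lay at 4.68, 5.21 and 5.81 in Lean and at 4.09, 4.59 and 5.04 in DIO, with overlap, a difference of -0.56 ± 0.17 (limma adjusted p = 0.431). Mvd, a later enzyme of the pathway, differed by -0.65 ± 0.15, Fdps by -0.49 ± 0.16, Fdft1 by -0.52 ± 0.14, Sqle by -0.40 ± 0.17 and Lss by -0.59 ± 0.18. Srebf2, the factor that drives these genes, differed by -0.17 ± 0.15, and Insig1, which holds it back, by -0.33 ± 0.13. Within slides 1, 2 and 3 the median was -0.32, -0.42 and -0.70, and leaving out single samples gave 13 to 17 members at that threshold. With the erythrocyte covariate the median was -0.43, with all 20 lower and 3 at that threshold. With the keratinocyte and fibroblast covariates it was -0.25, with 18 of 20 lower and 4 at that threshold. Npc1, which moves cholesterol out of lysosomes, lay at -0.42, -0.33 and -0.23 in Lean and at -0.83, -0.72 and -0.47 in DIO, without overlap, a difference of -0.34 ± 0.07 (limma adjusted p = 0.203). In the list of uptake and trafficking 12 of 13 were lower, with a median of -0.17, and Stard4, a sterol carrier, differed by -0.42 ± 0.13.

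The sterol regulatory element was read as TCACNCCAC on either strand and was found in 1 of 15 members with a promoter on file, 6.67%, against 1.44% of all genes. The match, in capitals, lies 137 bases before the start of Hmgcs1 (chr13:119690189-119690247, plus strand).
Hmgcs1: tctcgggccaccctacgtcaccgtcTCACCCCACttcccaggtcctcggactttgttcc

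The other lipid lists had medians nearer 0. Fatty acid synthesis and desaturation had a median of -0.09 with 11 of 17 lower, near the 59% of all genes below 0. Of the 17, 3 had an unadjusted p under 0.05, all lower, beside 4.22% of all genes. In this list Acss2, which makes acetyl-CoA, and Elovl4, which makes very long chains for the skin barrier, were at -0.34 ± 0.09 and -0.70 ± 0.22. PPAR targets and fatty acid oxidation had a median of -0.01 over 32 genes, and 0 had an unadjusted p under 0.05. Cpt1a, Pdk4 and Angptl4, which respond to fatty acids in many tissues, differed by -0.05 ± 0.08, 0.24 ± 0.35 and 0.05 ± 0.17.

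Differentiated keratinocyte genes were lower in 58 of 60, with a median of -0.58, and 11 had an unadjusted p under 0.05, all lower. Over all genes 59% lay below 0 and 4.22% were lower at that threshold. Lce3e and Lce3b, cornified envelope proteins of a family with near-identical copies, differed by -1.21 ± 0.42 and -1.13 ± 0.40, Sprr3 by -0.96 ± 0.39 and Krt13, a keratin of the oral lining, by -0.33 ± 0.17. The list was at -0.28, -0.35 and -1.50 within slides 1, 2 and 3, and its summed signal ran from 3028 to 6614 in Lean and from 2326 to 6003 in DIO. Without DIO 3 the median was -0.77 with 40 members at that threshold, without DIO 2 it was -0.42 with 7, and without Lean 9 the count was 6. With the erythrocyte covariate the median was -0.25, 10 of 60 were higher and 0 had an unadjusted p under 0.05. Basal keratinocyte genes had a median of -0.02.

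Cell cycle and DNA replication genes were higher in 35 of 37, with a median of 0.38, and 22 had an unadjusted p under 0.05, all higher. Over all genes 41% lay above 0 and 3.63% were higher at that threshold. Rrm2, part of ribonucleotide reductase, which supplies the building blocks of DNA, lay at 0.23, 0.80 and 0.85 in Lean and at 1.09, 1.22 and 1.59 in DIO. The groups did not overlap, and the difference was 0.63 ± 0.12 (limma adjusted p = 0.18). Mcm10, Mcm5 and Mcm6 of the replication machinery differed by 0.75 ± 0.15, 0.66 ± 0.18 and 0.42 ± 0.17, E2f1, which drives S phase, by 0.45 ± 0.09, and Tk1, a thymidine kinase, by 0.80 ± 0.19. The mitotic genes Cdc20 and Ccnb1 differed by 0.09 ± 0.16 and 0.08 ± 0.16. Leaving out single samples gave 16 to 28 members at that threshold. With the erythrocyte covariate 35 of 37 were higher, with a median of 0.28 and 4 at that threshold. With the keratinocyte and fibroblast covariates 36 were higher, with a median of 0.47 and 28 at that threshold.

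An E2F site read as TTTGGCGC on either strand was found in 5 of 32 members with a promoter on file, 15.6%, against 0.585% of all genes, and the form TTTCCCGC in 3, 9.38%, against 1.24%. The windows shown are those of Mcm5 (chr8:75109335-75109392, plus strand) and Mcm6 (chr1:128359720-128359777, minus strand), both described above, with the match in capitals.
Mcm5: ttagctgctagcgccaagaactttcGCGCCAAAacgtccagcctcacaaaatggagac
Mcm6: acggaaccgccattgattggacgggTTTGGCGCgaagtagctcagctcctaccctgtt

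The circadian clock genes were sorted into arms with earlier results of these data known, so their directions are described and not tested. The Bmal1 arm lay lower and the Per-Dbp arm was mixed. All 7 genes of the Bmal1 arm were lower, with a median of -0.42 and 6 at an unadjusted p under 0.05, beside 59% and 4.22% of all genes. The list's mean per sample did not overlap between the groups, from 0.15 to 0.37 in Lean and from -0.42 to 0.13 in DIO. Such means were compared in 44 lists. Arntl, which encodes Bmal1, lay at 1.25, 1.58 and 1.68 in Lean and at 0.92, 1.14 and 1.55 in DIO, a difference of -0.34 ± 0.10 with overlap. Its partners Npas2 and Clock differed by -0.52 ± 0.15 and -0.22 ± 0.10, the repressors Cry1 and Nfil3 by -0.42 ± 0.11 and -0.54 ± 0.19, and the nuclear receptor Rora by -0.45 ± 0.17. Within slides 1, 2 and 3 the median was -0.30, -0.32 and -0.59. With the erythrocyte covariate it was -0.41 with 2 members at that threshold, and with the keratinocyte and fibroblast covariates -0.44 with 4, all 7 lower in both.

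Of the 13 Per-Dbp arm genes 9 were higher, with a median of 0.28. At an unadjusted p under 0.05 there were 5 higher and 1 lower, beside 3.63% and 4.22% of all genes. With the erythrocyte covariate the median was 0.15, with 3 higher and 0 lower at that threshold, and without Lean 4 it was 0.18. Dbp, a transcription factor whose level swings with the clock, lay at 0.16, 0.28 and 0.47 in Lean and at 0.92, 1.72 and 2.86 in DIO. The groups were far apart, and the DIO samples spread more widely than the Lean samples. The difference of 1.51 ± 0.22 missed the threshold (limma adjusted p = 0.0587), and Dbp passed in 6 of 13 alternatives, among them the slide block (1.55, adjusted p = 0.0300). With single samples left out Dbp passed in 2 of 15 fits (limma adjusted p from 0.0124 to 0.211). Nr1d1 and Nr1d2, the Rev-erb repressors of Bmal1, differed by 0.71 ± 0.19 and 0.62 ± 0.14, Ciart, a further repressor, by 0.80 ± 0.35 and Tef, a relative of Dbp, by 0.34 ± 0.11. Per1, Per2, Per3 and Cry2 differed by -0.19 ± 0.17, 0.28 ± 0.18, 0.39 ± 0.23 and 0.08 ± 0.08, and Usp2 by -0.33 ± 0.13. The hour of sampling was not given in the sources used here, and its part in these values was not tested. Glucocorticoid targets, which also follow the day, were lower in 14 of 16, beside 59% of all genes. Their median was -0.25, or -0.16 with the erythrocyte covariate. Mt1, a metallothionein, differed by -0.38 ± 0.09 with its other probe at -0.01.

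**Figure D4:**
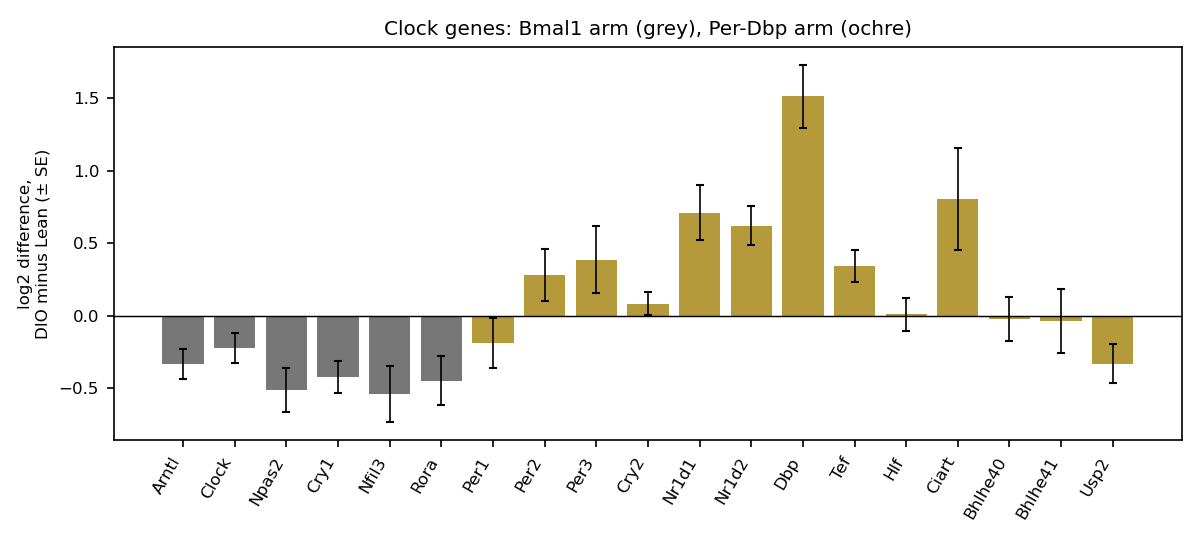
Log2 difference of DIO minus Lean with its standard error (y axis) for 19 clock genes, grey for 6 of the 7 genes of the Bmal1 arm and ochre for the Per-Dbp arm. The 6 grey bars all lie below 0, and the tallest ochre bar is Dbp at 1.51.

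An E-box read as CACGTG was found in 4 of 11 members of the Per-Dbp arm with a promoter on file, 36.4%, against 8.09% of all genes, and a D-box read as TTATGNAA on either strand in 2, 18.2%, against 3.99%. The window shown is that of Ciart (chr3:95882314-95882369, minus strand), the member with the largest difference among those holding the E-box, with the match in capitals.
Ciart: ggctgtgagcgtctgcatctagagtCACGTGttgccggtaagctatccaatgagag

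No taste gene passed the test. All 13 genes of type II transduction were lower, beside 59% of all genes, with a median of -0.29. But 1 had an unadjusted p under 0.05, beside 4.22% of all genes lower at that threshold. The median was -0.08 without DIO 1 with 11 of 13 lower, and -0.47 with the erythrocyte covariate. Tas1r3, the subunit shared by sweet and umami receptors, lay at -2.22, -1.89 and -1.40 in Lean and at -2.34, -2.25 and -1.93 in DIO, a difference of -0.32 ± 0.11 (limma adjusted p = 0.514). Tas1r2 and Tas1r1 differed by -0.58 ± 0.38 and -0.25 ± 0.21. Gnat3, Plcb2, Itpr3 and Trpm5, which pass the signal on, differed by -0.35 ± 0.36, -0.06 ± 0.08, -0.10 ± 0.11 and -0.36 ± 0.35. In Trpm5 the lowest DIO sample was at -1.88 while the DIO median, 0.50, was close to the Lean median, 0.49. The median over 24 bitter receptors was -0.15, and 0.04 without DIO 1. Among type III genes the median over 12 was -0.16, and -0.03 without DIO 1, with the sour-cell channel Pkd2l1 at -0.12 ± 0.37. Entpd2, the ecto-ATPase of type I cells, differed by 0.01 ± 0.16, and Scnn1b, a subunit of the salt channel, by -0.56 ± 0.23.

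The fat receptors differed by less than their standard errors. Cd36, a fatty acid receptor and transporter, lay at 0.24, 1.67 and 2.56 in Lean and at 0.91, 1.79 and 2.20 in DIO, a difference of 0.03 ± 0.29. Ffar4, the long-chain fatty acid receptor GPR120, differed by 0.12 ± 0.18. Over 13 fat-sensing genes the median was -0.07 and 0 had an unadjusted p under 0.05. Of the appetite hormone receptors, Lepr differed by -0.06 ± 0.17, Adipor1 by -0.21 ± 0.08 and Oxtr, the oxytocin receptor, by -0.59 ± 0.20.

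**Figure D5:**
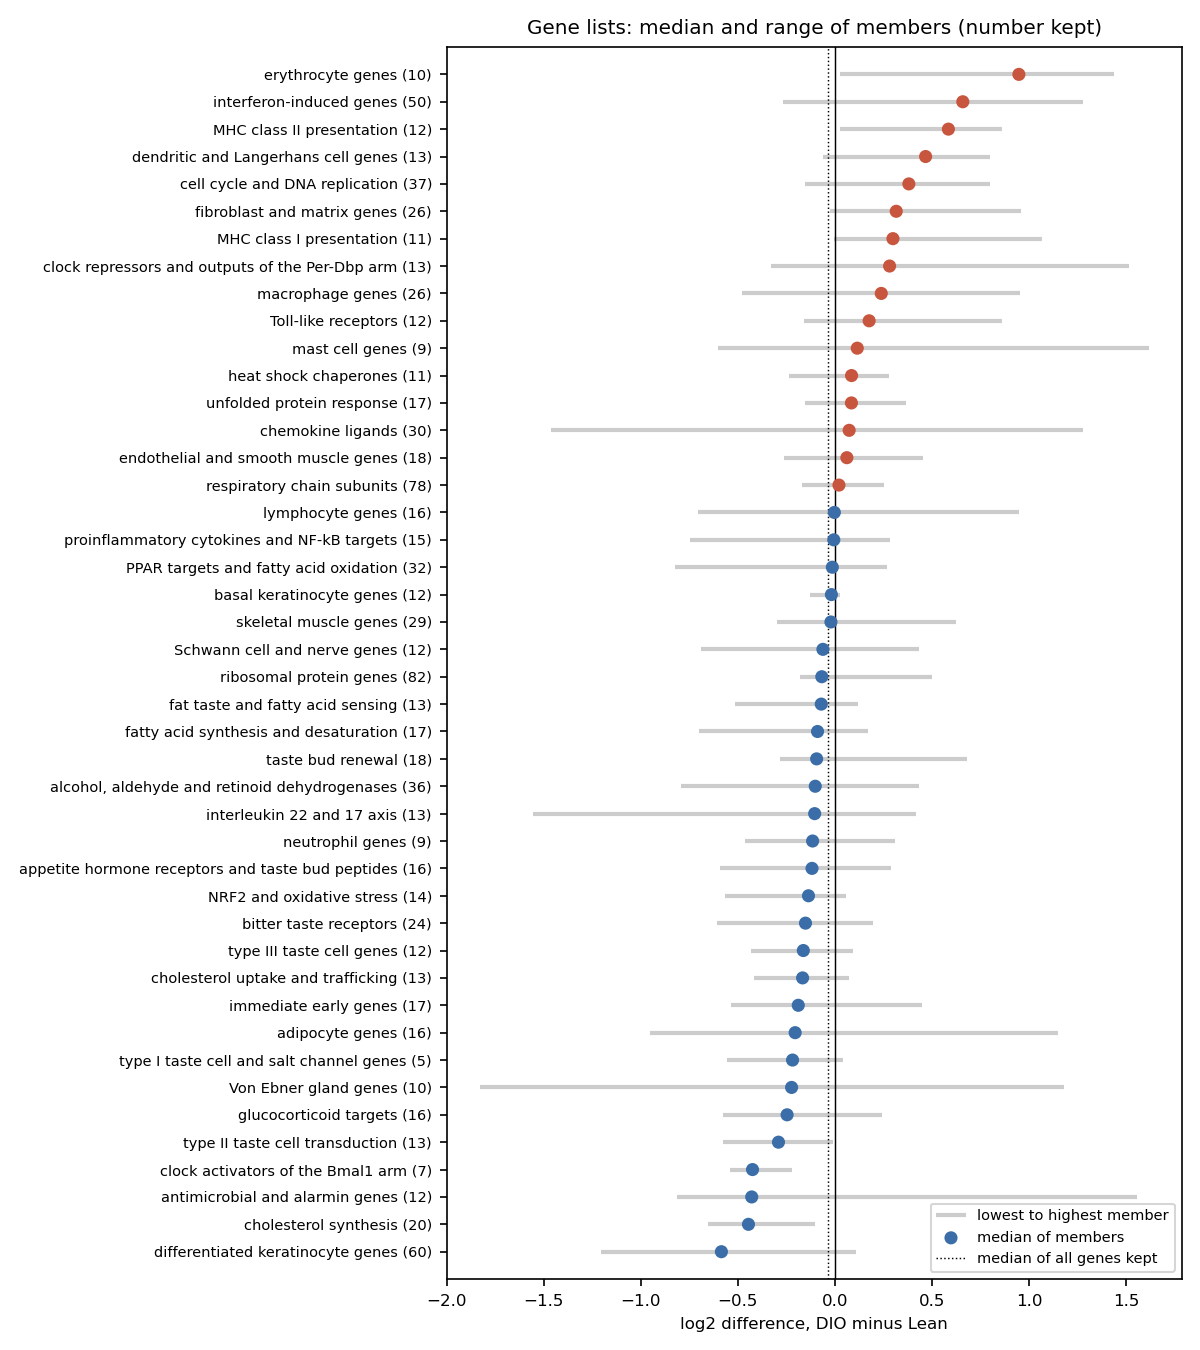
Median log2 difference of DIO minus Lean over the members of each of 44 gene lists (points, x axis) with the lowest and highest member (grey bars); the number of members kept is in brackets, and the dotted line is the median of all genes, -0.04. Erythrocyte and interferon-induced genes have the highest medians, 0.95 and 0.66, and differentiated keratinocyte genes the lowest, -0.58.

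Further genes with low p belonged to no theme fixed here. Nrep, a neuronal and regeneration-linked protein, lay at -0.45, -0.23 and -0.15 in Lean and at 0.00, 0.39 and 0.72 in DIO, without overlap, a difference of 0.63 ± 0.09 (limma adjusted p = 0.0749), and passed in 6 of 13 alternatives. With single samples left out Nrep passed in 1 of 15 fits (limma adjusted p from 0.0137 to 0.263). Adh1, an alcohol and retinol dehydrogenase, lay at 1.92, 2.26 and 2.67 in Lean and at 1.28, 1.61 and 1.80 in DIO, without overlap, a difference of -0.67 ± 0.12 (limma adjusted p = 0.16). Cyp26b1, which breaks down retinoic acid, differed by -0.58 ± 0.15. The list of alcohol, aldehyde and retinoid dehydrogenases had a median of -0.10 with 26 of 36 lower, beside 59% of all genes. Sik1, a salt-inducible kinase, differed by -0.34 ± 0.07, Foxo3, a transcription factor of fasting and stress, by -0.70 ± 0.16, and Ass1, which makes argininosuccinate, by -0.31 ± 0.07. Wfdc21, a secreted protease inhibitor relative, lay at -3.39, -3.13 and -1.43 in Lean and at -4.82, -3.92 and -3.71 in DIO, without overlap, a difference of -1.18 ± 0.26, or -0.51 with normexp and -0.66 with the erythrocyte covariate. Nlrp1a, an inflammasome sensor, differed by 0.51 ± 0.10, but its other probes differed by 0.32 and -0.65. Cyp1a1, the classic target of the aryl hydrocarbon receptor, lay at -4.48, -3.65 and -2.47 in Lean and at -2.87, -1.68 and 2.54 in DIO, a difference of 2.59 ± 0.70 with overlap (limma adjusted p = 0.366), or 1.67 with normexp and 4.04 with the erythrocyte covariate. Ahrr and Cyp1b1, further targets of that receptor, differed by 0.88 ± 0.35 and 0.53 ± 0.32.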

How the data were processed

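The deposited scanner files hold 1-colour spot intensity made with Agilent Feature Extraction 10.10.1.1 and probe positions on mm9, per the file headers. The authors' deposited value table is on a log2 scale with every array brought to a common level; its exact steps are not given in the sources used here, where the submitters' processing notes name limma, and it served as an alternative.

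The background-subtracted intensity was put on the log2 scale and the array's 75th percentile over spots other than controls was subtracted. Outlier spots were left out, spots of a probe averaged, and a gene read from its brightest probe. Groups were compared by a two-sided test in limma 3.58.1 under R 4.3.3, using lmFit and eBayes over the 15 arrays with no covariate, and Benjamini-Hochberg adjustment ran over 27582 genes; ± is the standard error. The fit was tested on simulated data. Plots used matplotlib 3.10.9. Symbols of 17017 genes matched RefSeq (GRCm38.p6).

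The rule for named genes took every called gene, the 12 lowest p and the 6 largest differences in each direction, 2 genes of each of 44 lists and a panel, 147 genes in all, of which 81 are described. A further 48 genes were chosen after their values were seen. The members and lists were chosen with earlier results of these data known. The number of arrays limits the precision. Some list members are counted but not reported by name here.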

Additional observations from a re-analysis of the deposited data

Results flagged for a closer look

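In 23 of 346 sets of values (1 gene or 1 list mean in 1 group), the highest or lowest sample lay apart from the others of its group by Dixon's criterion, which chance meets in about 1 in 20 sets. No cause was tested.

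DIO 3 was apart most often. It was low in Slamf9 (-0.16, against a median of 0.22 in the other DIO samples), Cx3cr1 (0.058 against 1.13), Cxcl12 (1.83 against 3.12) and Dcn (6.96 against 7.83), and high in Bst2 (2.84 against 1.45). Its list means were low for fibroblast and matrix genes (-0.70), endothelial and smooth muscle genes (-0.72) and macrophage genes (-0.46), and high for antimicrobial and alarmin genes (0.83).

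DIO 10 was high in Aif1 (1.79 against 1.23), Tlr12 (-1.22 against -1.89) and the lymphocyte list mean (0.80 against -0.03). DIO 1 was low in Tlr3 (-3.48 against -3.01), Ciart (-6.40 against -4.04), Pkd2l1 (-3.03 against -0.36) and the type III taste cell list mean (-1.07 against 0.11). DIO 6 was high in Nfil3 (2.71 against 1.55), and DIO 7 was low in Wfdc21 (-4.82 against -3.84).

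Among Lean samples, Lean 5 was low in H2-Ob (-2.59 against -1.38), Lean 10 in Cpa3 (-8.11 against -3.25), Lean 3 in Cd36 (0.24 against 1.70) and Lean 7 in Oxtr (-1.14 against -0.63). Lean 9 was high in Nr1d1 (0.078 against -0.79).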

How the results depend on the processing

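The count of called genes was 3 with the slide block, with the filter of all 15 arrays, with trend and robust eBayes and with array weights, 4 with normexp and 5 by the authors' values. It was 0 with no filter and with the erythrocyte covariate, and from 0 to 5 with single samples left out (5 without Lean 7, 4 without DIO 6). Genes at an unadjusted p under 0.05 numbered 3404 with array weights, 746 with the erythrocyte covariate and from 1576 to 3234 with single samples left out. The erythrocyte genes were themselves higher in DIO, so lower counts with that covariate cannot be read as smaller differences. Aif1 differed by 0.95 with no filter, 1.07 with the erythrocyte covariate, 0.88 with the keratinocyte and fibroblast covariates and from 0.88 to 1.01 with single samples left out; it did not pass without Lean 3, 4, 6, 9 or 10 or DIO 1, 2, 3, 5, 7 or 8. The cause was not tested.

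With each gene's group mean subtracted, correlations of samples sharing a replicate number between the groups ran from -0.26 to 0.34. Those of other pairs between the groups ran from -0.33 to 0.47. Whether the numbers pair the samples cannot be told from so few. With the replicate block 0 genes were called, 1068 had an unadjusted p under 0.05 and Aif1 differed by 0.96 (adjusted p = 0.999). The block fits a level for each replicate number, which leaves little to estimate the spread.

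Signs turned in the following genes, none of which passed the test. With the replicate block Dcn was at -0.068, Angptl4 at -0.014, Pkd2l1 at 0.12, Plcb2 at 0.013, Entpd2 at -0.010 and Csf1r at -0.028. With the erythrocyte covariate Angptl4 was at -0.049, Pdk4 at -0.12, Cd36 at -0.027, Entpd2 at -0.12, Cdc20 at -0.021 and Cry2 at -0.0055. With the keratinocyte and fibroblast covariates Dcn and Angptl4 were at -0.23, Cd36 at -0.20, Entpd2 at -0.16, Csf1r at -0.19 and Lepr at 0.028. Lyz2 was at 0.041 after quantile normalization and at 0.013 by the authors' values, Entpd2 at -0.0047 with normexp and Pkd2l1 at 0.0073 with array weights. With single samples left out the ranges were -0.10 to 0.071 for Lyz2, -0.086 to 0.13 for Dcn, -0.20 to 0.19 for Cd36, -0.24 to 0.23 for Pkd2l1, -0.076 to 0.14 for Entpd2, -0.058 to 0.16 for Angptl4, -0.0088 to 0.21 for Csf1r, -0.13 to 0.071 for Lepr, -0.026 to 0.22 for Ciita and -0.13 to 0.11 for H2-Ob. List counts without single DIO samples and with covariates were chosen after seeing the data. Normexp also gave smaller differences for Fcgr1 (0.22), Clec9a (0.15), Ciart (0.14), Ccl12 (0.48), Ccl7 (0.47), Gbp7 (0.37) and Npas2 (-0.27).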
